A study of Mus musculus with 18 samples.

Results

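Respiratory chain complex I genes of the mouse retina were followed through postnatal development and compared between mice lacking polo-like kinase 3 (Plk3-KO) and wildtype (WT) littermates. The members were the genes whose only symbol in the array annotation starts with Ndufa, Ndufb, Ndufc, Ndufs, Ndufv or Ndufaf, with Ndufs5 left out, which gave 43 of the 18193 genes on the array that have a symbol of their own. Retinas came from animals at birth (P0), at postnatal day 7 (P7) and as adults, whose age in days the labels do not give, and each age had 3 WT and 3 Plk3-KO arrays, 18 in all. All groups were labelled C57Bl/6, and the Plk3-KO line, which came in part from a Black Swiss background carrying the Rd1 allele of Pde6b, had been crossed to C57Bl/6 until litters were free of that allele. The study speaks of biological replicates, with 3 retinas of each genotype per age. Neither the number of animals per array nor the litter of an array is given. How much of the spread between arrays lies between animals is therefore not known, and part of it may be technical. RNA was hybridized to Affymetrix whole-genome mouse arrays, and every level given here is the authors' MAS5 signal on the log2 scale. A level can be compared between arrays for 1 gene, but not between genes, since every probe set binds with its own strength.

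Complex I (NADH:ubiquinone oxidoreductase) is the entry point of electrons from NADH into the respiratory chain of the inner mitochondrial membrane. Its matrix arm carries the NADH-binding flavin and a chain of iron-sulfur clusters that ends at ubiquinone, and its membrane arm pumps protons. Core subunits do the chemistry, accessory subunits surround and stabilise them, and assembly factors build the complex without staying in it. The membrane-arm core is encoded by mitochondrial DNA, while all the genes followed here are nuclear. In the retina, mitochondria are packed into the inner segments of photoreceptors, cells that use much ATP to keep their dark current running.

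Of the 43 genes, 6 encode core subunits, 7 accessory subunits of the matrix arm, 8 accessory subunits of the proximal and 12 of the distal membrane arm, 8 are Ndufaf assembly factors, and Ndufa4 and Ndufa4l2 carry a complex I name while the proteins belong elsewhere. The array held 87 probe sets for them, and 22 genes had several, of which the brightest on average was taken. The mean passed 7, the minimum set in the study's methods, in all 6 groups for 41 genes. Ndufb4 passed it in the adult WT group alone and so had to be higher there, and Ndufa4l2 fell to about that level in the adult.

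Promoter sequences of 4 members are shown to let the start regions of genes with different courses be set side by side. The stretches are RefSeq promoter windows of GRCm38.p6, cut to 250 bases before the transcription start and the first 30 after it. They were searched on both strands for GCGCA and GCGC with any single base between them (the site of nuclear respiratory factor NRF1), CCGGAAG (ETS factors such as Gabpa), AAGATGGCG (YY1) and AAGGTCA (estrogen-related receptors), and a match is printed in capitals in the lines that follow. Ndufaf5 at chr2:140170396-140170675 (plus strand) and Ndufa8 at chr2:36049309-36049588 (minus strand) hold an NRF1 match and were higher in the adult. Ndufs8 at chr19:3912745-3913024 (minus strand) holds an ETS match and was higher in the adult. Ndufs4 at chr13:114388065-114388344 (minus strand) holds none of the 4 motifs and was not called.
Ndufaf5: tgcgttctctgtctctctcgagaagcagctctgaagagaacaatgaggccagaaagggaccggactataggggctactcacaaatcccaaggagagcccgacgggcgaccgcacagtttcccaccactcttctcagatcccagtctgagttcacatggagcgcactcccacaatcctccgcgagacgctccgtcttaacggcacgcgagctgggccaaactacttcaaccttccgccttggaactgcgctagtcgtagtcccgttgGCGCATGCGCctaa
Ndufa8: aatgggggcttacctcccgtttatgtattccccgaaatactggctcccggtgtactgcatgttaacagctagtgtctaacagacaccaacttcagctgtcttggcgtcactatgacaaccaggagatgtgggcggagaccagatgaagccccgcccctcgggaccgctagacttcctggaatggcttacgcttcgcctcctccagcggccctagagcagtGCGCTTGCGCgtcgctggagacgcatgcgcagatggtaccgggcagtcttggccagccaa
Ndufs8: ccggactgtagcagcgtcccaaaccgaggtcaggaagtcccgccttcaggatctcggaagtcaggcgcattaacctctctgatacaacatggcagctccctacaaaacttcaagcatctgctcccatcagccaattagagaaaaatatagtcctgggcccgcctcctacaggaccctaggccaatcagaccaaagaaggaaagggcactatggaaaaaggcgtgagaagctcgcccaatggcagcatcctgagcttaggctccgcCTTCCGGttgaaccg
Ndufs4: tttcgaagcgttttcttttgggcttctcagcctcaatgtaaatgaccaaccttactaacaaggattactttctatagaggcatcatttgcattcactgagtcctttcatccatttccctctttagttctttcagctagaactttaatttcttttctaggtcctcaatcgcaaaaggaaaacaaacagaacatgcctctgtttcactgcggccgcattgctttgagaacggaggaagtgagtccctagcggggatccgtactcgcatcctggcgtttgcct

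A promoter entry was used for 38 members, all but Ndufa2, Ndufa4l2, Ndufaf6, Ndufb9 and Ndufs1. Promoters on chromosome 18, where Ndufa2 lies, were left out of the search and of the background. The NRF1 motif was present in 5 of them, Ndufa5, Ndufa8, Ndufaf4, Ndufaf5 and Ndufb4, that is 13.2% of these members against 4.41% of 32851 promoters of the same length. The ETS motif was present in 6, Ndufaf1, Ndufaf8, Ndufb6, Ndufb7, Ndufs3 and Ndufs8, which is 15.8% against 8.45%. The receptor motif was found in Ndufb2 and Ndufb4 (5.26% against 4.46%) and the YY1 motif in Ndufaf8 (2.63% against 1.05%). For each motif a member counted when any of its promoter entries held it, while the background share was taken over single entries. The shares are thus unlike measures, and a gene with several entries had more ways to count. Among the 19 members with a promoter entry that were higher in the adult WT retina, 3 held the NRF1 and 3 the ETS motif, and among the other 19 the numbers were 2 and 3.

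Facts of all arrays set the frame for what follows. Most rod, cone, bipolar and Müller glia markers were higher and progenitor markers lower in the adult than at P0. The mean level of the 9 rod markers with a probe set of their own lay between 8.19 and 9.27 at P0 and between 14.4 and 15.6 in the adult per array, in both genotypes. Lens markers varied widely among P0 WT arrays, with means from 4.12 to 13.9. Plk3 itself has 1 probe set, at the 3' end outside the deleted part, so it cannot show the loss of that part. The study reported a raised 3' signal in Plk3-KO retinas, also by qPCR. Its qPCR of the targeted region was strongly lower, and its in situ probes gave no signal in Plk3-KO. Levels of the Plk3 probe set were 7.4 to 8 on adult Plk3-KO and 3.9 to 5.9 on adult WT arrays. They were 6.1 to 8.1 against 6 to 6.3 at P7 and 7.5 to 8.2 against 6.4 to 7.3 at P0.

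From P0 to the adult in the WT retina, of the 43 genes 21 were higher in the adult, which is 48.8%, and 1 was lower, while of 12109 genes tested with 1 probe set each 27.4% were called higher and 22.6% lower. Genes were called at an adjusted p under 0.05 in limma (Benjamini-Hochberg over all 25085 probe sets tested). The median difference of the 43 genes was 0.70, and that of all genes was 0.067. The 3' minus 5' difference of the actin control probe sets, a sign of RNA quality described further on, was also larger on every adult than on every P0 array. With it as a covariate, 5 genes were higher and 6 lower, and the median was 0.19. The share of all genes called in that fit is not given here, so the drop may not be particular to complex I. Without the covariate, differences were positive for 36 genes and negative for 6. The called increases ran from 0.47 for Ndufs1 to 1.53 for Ndufaf5, or from 1.38-fold to 2.89-fold, with standard errors between 0.16 and 0.40. In 18 genes every adult WT array lay above every P0 WT array (31.5% of all genes), and in Ndufa4l2 and Ndufaf7 every adult array lay below (26.6% of all genes). Without Ndufb4, 20 of 42 genes were higher and the median was 0.68. In such whole-tissue RNA, a change in the share of a cell type cannot be told apart from a change in the RNA of each cell.

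**Figure D1:**
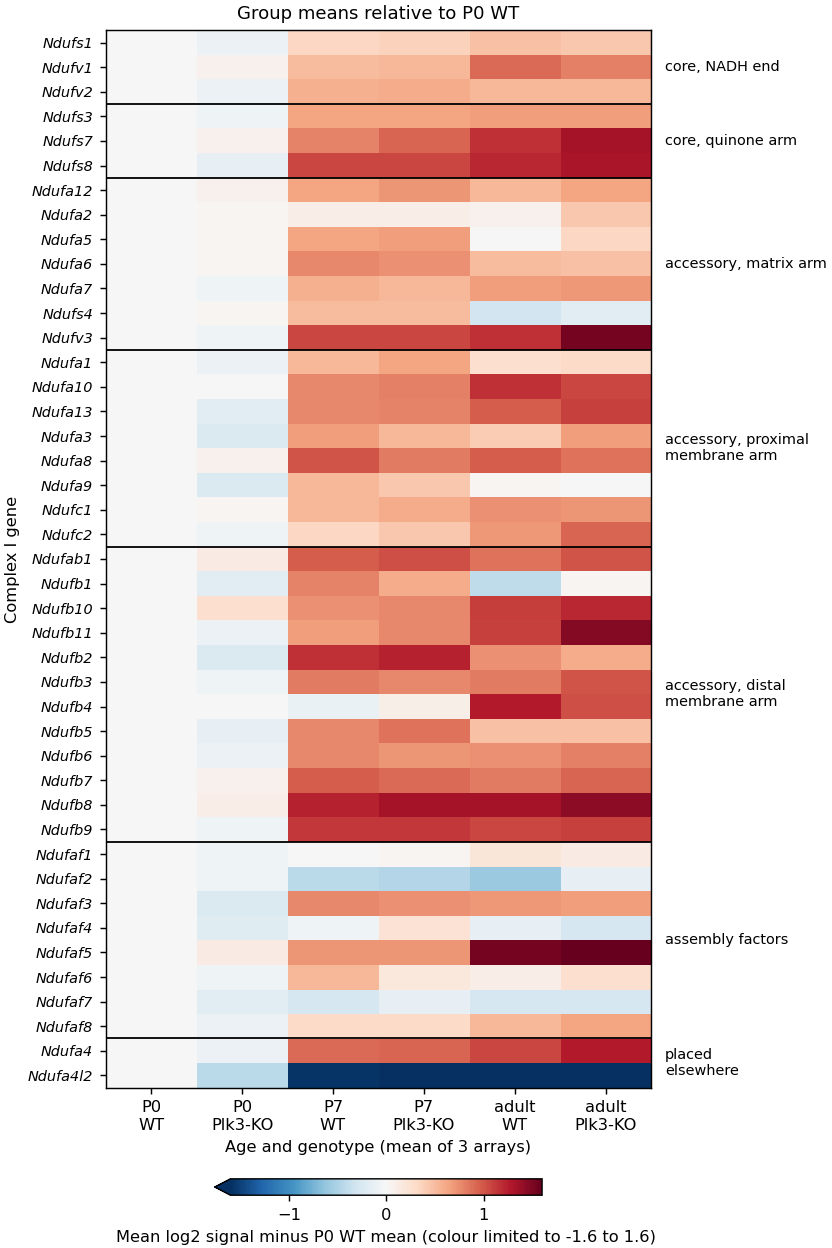
Group means of the 43 complex I genes relative to the P0 WT mean. Rows are genes ordered by the role of the protein, columns are the 6 groups of 3 arrays, and colour is the difference in log2 signal, limited to the range printed under the bar. Most subunit rows turn red at P7 and in the adult in both genotypes, most assembly factor rows stay pale apart from Ndufaf3 and Ndufaf5, and Ndufa4l2 turns blue.

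Of the 6 core subunits of the matrix arm, 5 rose in the WT retina, and the differences of all 6 lay between 0.47 and 1.20. Ndufs7, which carries the last iron-sulfur cluster before ubiquinone, measured 11.7, 11.8 and 11.5 on the P0 WT arrays and 13.4, 12.9 and 12.2 on the adult ones. Ndufs8, a neighbouring iron-sulfur subunit, measured 12.2, 11.9 and 11.4 at P0 and 13.4, 13.2 and 12.5 in the adult. In both genes the adult arrays all lay above the P0 arrays, with a difference of 1.17 ± 0.33 (SE) for Ndufs7 (limma, adjusted p = 0.00974) and of 1.20 ± 0.37 for Ndufs8 (adjusted p = 0.0140). Ndufs3, which sits beside the quinone site without a cluster of its own, went from 12, 12.1 and 12.1 to 13, 12.9 and 12.3 (difference 0.67, adjusted p = 0.0336).

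At the NADH end of the arm, 2 of 3 genes passed. Ndufv1, which binds NADH and the flavin, measured 11.6, 11.8 and 11.7 at P0 and 13, 12.6 and 12.2 in the adult WT retina, with no overlap (difference 0.90 ± 0.22 SE, adjusted p = 0.00324). Ndufs1, the largest core subunit with several clusters, rose by 0.47 ± 0.16, the smallest of the called increases, and its groups touched, since P0 array 1 and adult array 3 both read 11.7. Ndufv2, which carries a cluster next to the flavin, read 13.1, 12.8 and 12.6 at P0 and 13.6, 13.5 and 13 in the adult. The difference of 0.53 ± 0.34 for Ndufv2 did not pass (adjusted p = 0.199).

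Of the accessory subunits of the matrix arm, 1 of 7 was called higher, with a median of 0.50. The gene that passed was Ndufv3, a small subunit at the NADH end, with 12.7, 12.7 and 12.3 at P0 and 14.0, 13.8 and 13.4 in the adult (difference 1.17 ± 0.39 SE, adjusted p = 0.0221). Ndufs4, whose loss in mice is a model of mitochondrial encephalopathy, measured 12, 11.6 and 11.1 at P0, 11.7, 11.6 and 12.9 at P7 and 11.4, 11.4 and 11 in the adult. Its P0 and adult WT arrays overlapped, and its difference of -0.30 ± 0.37 did not pass (adjusted p = 0.518). Ndufa12, Ndufa2, Ndufa5, Ndufa6 and Ndufa7 had differences from 0.00 to 0.67, and none of these passed.

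On the membrane arm, 4 of 8 proximal and 8 of 12 distal accessory subunits were higher in the adult WT retina, with medians of 0.72 and 0.85. Ndufa8, a proximal subunit facing the space between the membranes, rose from 11.1, 11.5 and 11.4 to 12.5, 12.4 and 12 (difference 0.97 ± 0.20 SE, adjusted p = 0.00107). Ndufa10, its neighbour in that arm, read 11.8, 11.8 and 11.9 at P0 and 13.4, 13.1 and 12.5 in the adult (difference 1.17 ± 0.24, adjusted p = 0.00108). In both genes the ages did not overlap, and Ndufa13 and Ndufc1 rose as well. Ndufa9, which lies at the junction of the arms, read 12.4, 12 and 11.7 at P0 and 12.2, 12.2 and 11.8 in the adult, and its difference of 0.03 ± 0.29 has a 95% interval within 1 log2 unit of zero.

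Distal subunits included the clearest increases among structural genes. Ndufb8 measured 12, 12 and 11.9 on the P0 WT arrays, 12.9, 12.8 and 13.9 at P7 and 13.7, 13.5 and 12.7 in the adult, an adult difference of 1.33 ± 0.34 (SE, adjusted p = 0.00453). Ndufb10 rose from 11.1, 11.4 and 11.1 to 12.6, 12.5 and 11.8 (difference 1.10 ± 0.20, adjusted p = 0.000330). In both genes no adult array overlapped a P0 array. Ndufab1, the mitochondrial acyl carrier protein that also serves fatty acid synthesis, rose by 0.87 ± 0.26 (adjusted p = 0.0141). Ndufb4 read 5.8, 5.7 and 6.2 at P0 and 7.2, 6.9 and 7.4 in the adult, so that its call (adjusted p = 0.0163) rests on levels about the minimum. Ndufb1 was brightest at P7, with 8.6, 8.1 and 8.0 at P0, 8.8, 8.9 and 9.4 at P7 and 8.3, 7.5 and 7.7 in the adult. Its difference from P0 to the adult did not pass, at -0.40 ± 0.34 (adjusted p = 0.35).

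Of the 8 Ndufaf assembly factors, 2 were higher in the adult WT retina, and the median difference was 0.15. Ndufaf5, which hydroxylates Ndufs7 during early assembly, had the largest increase of all 43 genes. It measured 8.9, 8.8 and 8.4 at P0, 9.3, 9.4 and 9.5 at P7 and 10.5, 10.4 and 9.8 in the adult. All 3 ages were separated without overlap, and the rise from P0 to the adult was 1.53 ± 0.22 (SE, adjusted p = 4.14e-05). Ndufaf3, an early factor that works with Ndufaf4 on the quinone arm, rose by 0.70 ± 0.25 (adjusted p = 0.0326), from 10.6, 10.8 and 10.1 to 11.5, 11.3 and 10.8, so that its groups touched at 10.8.

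Ndufaf8, the partner that stabilises Ndufaf5, had a difference of 0.53 ± 0.37 and did not pass (adjusted p = 0.250). Ndufaf4 differed by -0.13 ± 0.21, Ndufaf1, a factor of the membrane arm, by 0.20 ± 0.18, and Ndufaf6, which is needed for early assembly, by 0.10 ± 0.28, with no call. Ndufaf2, a relative of Ndufa12 that acts late, read 10.1, 9.4 and 9.3 at P0 and 9.4, 9.2 and 8.4 in the adult, a difference of -0.60 ± 0.31 that did not pass (adjusted p = 0.118). Ndufaf7, a methyltransferase for a core subunit, read 9.6 on each P0 WT array and 9.3, 9.4 and 9.3 in the adult. Its groups did not overlap, yet the difference of -0.27 ± 0.21 was not called (adjusted p = 0.295).

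Ndufa4 and Ndufa4l2, related genes, moved in opposite directions. Ndufa4, now placed in cytochrome c oxidase, read 13.7, 13.5 and 12.8 on the P0 WT arrays and 14.8, 14.4 and 14.0 in the adult (difference 1.07 ± 0.38 SE, adjusted p = 0.0305). Ndufa4l2, a gene induced by low oxygen in other tissues whose product restrains respiration, read 10.3, 11 and 10.7 at P0, 9.1 on each array at P7 and 7.3, 7.2 and 7.6 in the adult. No array of Ndufa4l2 overlapped the next age. Its fall was -3.30 ± 0.26 on the log2 scale (adjusted p = 5.74e-08), or 9.85-fold, down to levels near the minimum. The Plk3-KO arrays showed the same order, with 10.3, 10.3 and 10.1 at P0, 9.4, 8.3 and 9.1 at P7 and 7.1, 6.7 and 6.9 in the adult (difference -3.33 ± 0.26, adjusted p = 5.01e-08).

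**Figure D2:**
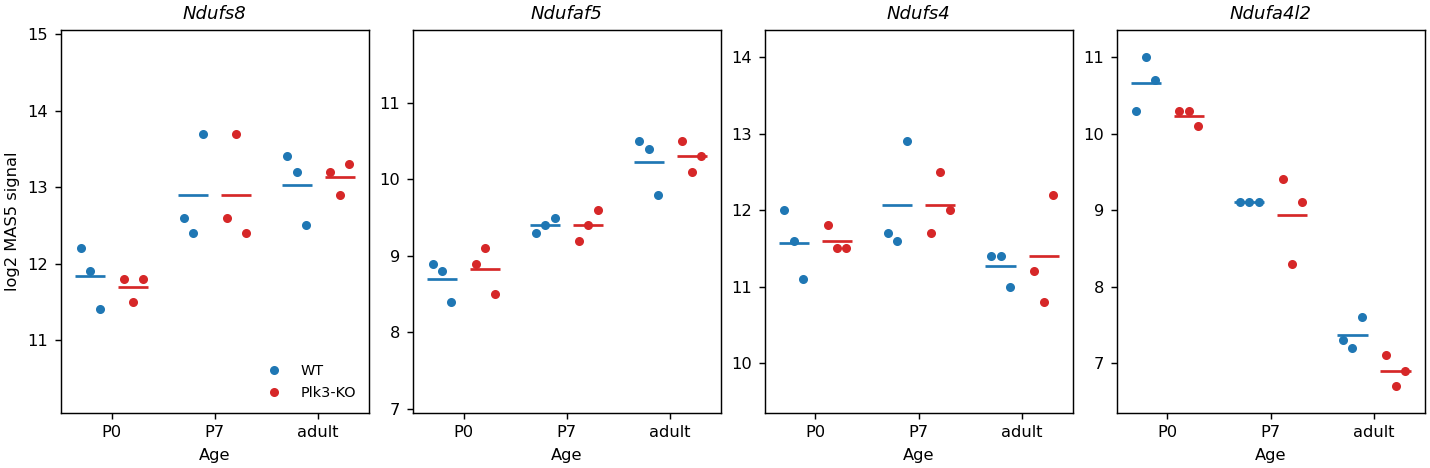
Log2 MAS5 signal on every array for Ndufs8, Ndufaf5, Ndufs4 and Ndufa4l2 at P0, P7 and in the adult, with each point an array, arrays 1 to 3 from left to right, and each bar the mean of 3 arrays. All panels span the same number of log2 units. Ndufs8 and Ndufaf5 are higher in the adult than at P0, Ndufs4 overlaps between P0 and the adult, and Ndufa4l2 is lower at every later age.

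In the Plk3-KO retina, 22 genes were higher and 1 was lower in the adult than at P0, which is 51.2% and 2.33% of the members against 25.1% and 24.5% of all genes. The 21 genes called higher in WT were all among them, and Ndufc2 was the further one. Ndufa4l2 was again the gene called lower. Of all genes tested, 22.6% were called higher in both genotypes. The differences of the 43 genes correlated between the genotypes, with Pearson's r = 0.969, and with 0.924 when Ndufa4l2 was left out. These are correlations across genes, which are not independent of each other, since all genes of a genotype were read on the same arrays. Increases in Plk3-KO ran from 0.53 for Ndufs1 to 1.6 for Ndufv3.

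**Figure D3:**
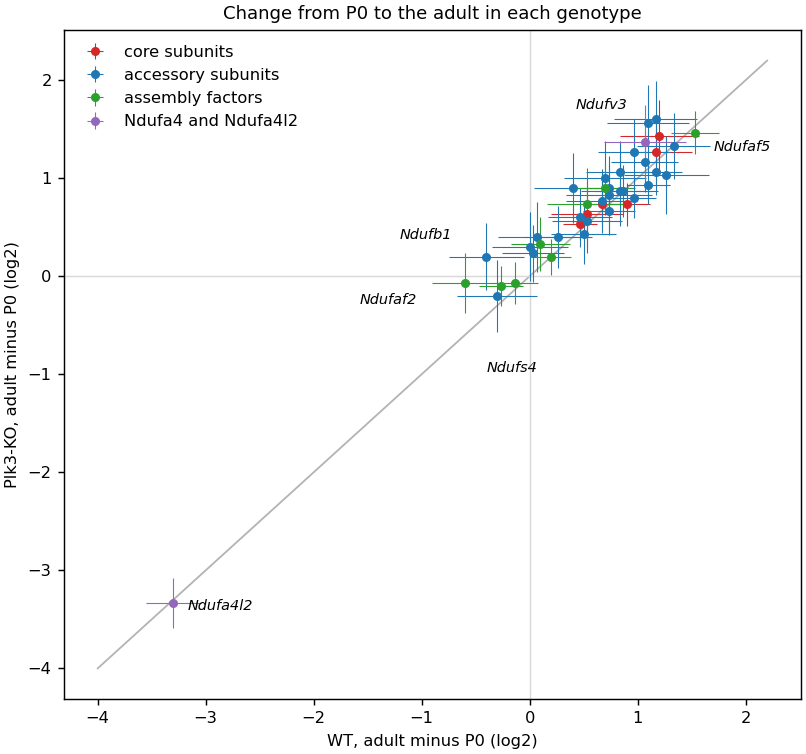
Difference between the adult and P0 in log2 units for the 43 genes, in WT on the horizontal and in Plk3-KO on the vertical axis, with standard errors from limma and colours by role. The line marks equal differences. The points lie along it, most of them between 0 and 1.6 on both axes, with Ndufa4l2 at -3.30 and -3.33.

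Other probe sets of the same genes were read beside those used. Of 37 further probe sets that passed the minimum, 30 went in the direction of the member probe set from P0 to the adult in WT, 12 were called higher and 0 lower (limma). The opposite direction by over 0.5 was seen in 1 probe set each of Ndufab1 (-0.67), Ndufs8 (-1.10) and Ndufs4 (1.77). The probe set of Ndufs4 read 5.47 at P0, 4.5 at P7 and 7.23 in the adult as WT means, and a further probe set of Ndufa10 read 6.27, 6.9 and 8.13. In WT both passed the minimum in the adult alone, so their rise was fixed by that filter, and both are among the 12 called higher. Probe sets below the minimum, which were not tested, gave -2.83 for Ndufb8 and -0.73 for Ndufab1. The 4 other probe sets of Ndufs8 gave differences from 0.57 to 1.20.

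The rise was not spread evenly over the arrays of a group. The mean level of the 43 genes was 11.7, 11.6 and 11.3 on the P0 WT arrays and 11.5, 11.4 and 11.5 on the P0 Plk3-KO arrays. It was 11.9, 11.8 and 12.6 at P7 in WT and 11.9, 12.5 and 11.9 in Plk3-KO. It was 12.3, 12.2 and 11.7 in the adult WT and 12.1, 11.8 and 12.4 in the adult Plk3-KO retina. On 4 arrays the genes thus stood apart from their group together. P7 WT array 3 had 39 of 43 genes above both other arrays, P7 Plk3-KO array 2 had 36, and adult Plk3-KO array 3 had 31. Adult WT array 3 had 39 genes below both. On these arrays the median of all genes differed from the group's other arrays by -0.1 to -0.05, while that of the complex I genes differed by -0.6 to 0.9. The 4 arrays also stood apart over all probe sets. The array median was 6.4 on both P7 arrays, against 6.8 to 6.9 on the other P7 arrays. In the adult it was 7 on WT array 3 and 7.2 on Plk3-KO array 3, against 6.3 to 6.5 on the others. The share of probe sets above the minimum was 42.1% and 41.9% on the P7 arrays, against 47.7% to 48.6%. It was 49.6% and 52.9% on the adult arrays, against 42.3% to 44.2%.

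A measure of RNA integrity and of amplification moved with some of these arrays. The 3' minus 5' difference of the actin control probe sets, which grows as the copied RNA becomes shorter, was 1.0 to 1.3 at P0. At P7 it was 0.8 to 1.1 on 4 arrays and 1.6 on both arrays that stood apart. In the adult it was 1.6 to 1.8, and 2.7 on Plk3-KO array 3, while WT array 3 at 1.6 was no different from its group. The same difference for the Gapdh control probe sets was -0.5 to -0.3 at P0 and -0.5 to -0.2 at P7. In the adult the Gapdh difference was -0.2 to 0, apart from 0.9 on Plk3-KO array 3. With the actin difference as a covariate in the fit, 5 genes were called higher and 6 lower from P0 to the adult in WT. In Plk3-KO 1 was higher and 4 were lower (median 0.18), so that most of the calls of a rise did not hold. Shares of all genes called in that fit are not given here. The loss of calls may therefore not be particular to complex I genes. Since the actin difference was larger on every adult than on every P0 array, the age and this measure cannot be told apart. The fall of Ndufa4l2 held in that fit.

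**Figure D4:**
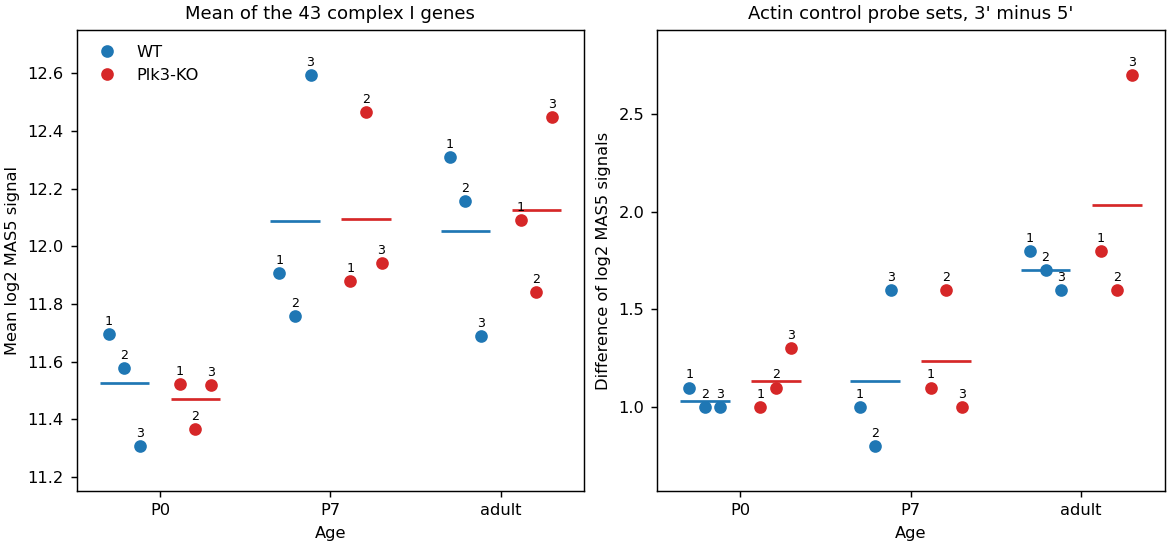
Mean log2 signal of the 43 complex I genes on each array (left) and the 3' minus 5' difference of the actin control probe sets (right), by age and genotype. Points are arrays with the array number beside them and bars are means of 3 arrays. P7 WT array 3, P7 Plk3-KO array 2 and adult Plk3-KO array 3 lie above the other arrays of their group in both panels, and adult WT array 3 lies below in the left panel.

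Over the first week, 9 genes rose and 1 fell in the WT retina, which is 20.9% and 2.33% of the members, against 14.6% and 9.78% of all genes. They were Ndufa10, Ndufa8, Ndufab1, Ndufb10, Ndufb6, Ndufb8, Ndufb9, Ndufaf3 and Ndufaf5, and the gene that fell was Ndufa4l2. All 9 were also called higher in the adult. Ndufb8 had the largest increase, 1.23 ± 0.34 (SE, adjusted p = 0.0166). The median over the 43 genes was 0.67. None of the 6 core subunits passed, although Ndufs8 read 12.6, 12.4 and 13.7 at P7 without overlap with P0 (difference 1.07 ± 0.37, adjusted p = 0.0515). In Plk3-KO, 11 rose and 1 fell, against 14.2% and 11.6% of all genes, with a median of 0.70. In both genotypes 7 of the genes rose, and the share of all genes that did so is not given here.

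The P7 counts hang on single arrays. Shares of all genes called are not given for the fits that leave out a single array. In WT, leaving out P7 WT array 3 left 1 gene called higher, leaving out P0 WT array 1 or 3 left 4 or 2, and leaving out P7 WT array 2 gave 14. In Plk3-KO, leaving out P7 Plk3-KO array 2 left 0 genes called higher, leaving out P0 Plk3-KO array 1, 2 or 3 left 4, 3 or 6, and leaving out P7 WT array 3, which changes the shared spread, gave 19. From P0 to the adult in WT, leaving out adult WT array 1 or 2 left 7 or 10, and leaving out P0 WT array 3 left 11.

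From P7 to the adult, 4 genes were called in WT and 2 in Plk3-KO. These counts also moved with single arrays: in WT 0 were higher without adult WT array 1 or P7 WT array 1 and 1 was higher without adult WT array 2 or P7 WT array 2, while 1 was lower without adult WT array 2 or P7 WT array 3. In Plk3-KO 0 were higher without P7 Plk3-KO array 1, and 2 were lower without adult Plk3-KO array 3. In WT, Ndufaf5 rose by 0.83 ± 0.22 (SE, adjusted p = 0.0165) and Ndufb4 by 1.37 ± 0.40 (adjusted p = 0.0264), while Ndufa4l2 and Ndufb1 fell, Ndufb1 by -1.20 ± 0.34 (adjusted p = 0.0250). Among all genes, 11.7% were higher and 10.7% lower. Ndufb4 passed the minimum through the adult alone, so its rise was fixed by that filter, and without it 1 of 42 genes was higher. In Plk3-KO, Ndufaf5 rose by 0.90 ± 0.22 (adjusted p = 0.0106) and Ndufa4l2 fell by -2.03 ± 0.26 (adjusted p = 6.39e-05), against 10.5% and 11% of all genes. The medians of the 43 genes were -0.03 in WT and 0.10 in Plk3-KO.

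The division of the rise between the first week and later depended on the 4 arrays that stood apart. Without them, 12 genes were higher and 2 lower in WT from P0 to P7 (median 0.38), 20 higher and 1 lower from P7 to the adult (median 0.40), and 31 higher and 1 lower from P0 to the adult (median 0.90). In Plk3-KO the counts were 20 and 1, 6 and 3, and 27 and 2 (medians 0.52, 0.15 and 0.65). Of all genes, 21.1% were then called higher and 14.6% lower in WT from P0 to P7, 19.1% and 20.5% from P7 to the adult, and 33.6% and 29.3% from P0 to the adult. In Plk3-KO these shares were 19.4% and 15.2%, 15.3% and 17.6%, and 30.5% and 29.2%. The 21 genes higher in WT with all arrays were also higher in WT without these 4. This setting was chosen after seeing the data.

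Scaling between arrays mattered for the first week more than for the whole interval. The median of all probe sets tested lay at -0.20 from P0 to the adult in WT as deposited, at -0.05 after quantile normalization and at 0.20 with arrays centred on their medians. The number of complex I genes called higher was 21, 24 and 19, in that order, and the gene called lower was Ndufa4l2 in each. Centring also moved the share of higher among all called probe sets from 44.4% to 61%. From P0 to P7 in WT the counts of higher complex I genes were 9, 22 and 1. Among all probe sets the numbers called there moved as well, with 4816, 5632 and 3485 called in either direction. Of these, 53.9%, 60.8% and 68.5% were higher.

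No complex I gene was called between Plk3-KO and WT retinas at any age. At P0, P7 and in the adult and as a mean over the ages, 0 of the genes tested (42, 42, 43 and 43) were called in limma, and the smallest adjusted p was 0.977. Of all genes tested, 0% were called in each of these. At an unadjusted p under 0.05, limma gave 0, 0, 0 and 1 of them, beside 48 of 10940, 54 of 11054, 604 of 11233 and 220 of 12109 genes tested. The methods' t-test at an unadjusted p under 0.05 gave 1 in the adult. The number over all genes in that test is not given here, so this count cannot be judged. The differences ran from -0.43 for Ndufa4l2 to 0.27 for Ndufb10 at P0. At P7 they ran from -0.37 for Ndufaf6 to 0.30 for Ndufaf4, and in the adult from -0.47 for Ndufa4l2 to 0.47 for Ndufaf2. As a mean over ages, the 95% intervals of all 43 genes lay within 1 log2 unit of zero, the lowest bound being -0.67 and the highest 0.59. In the adult alone, intervals of 32 of 43 genes stayed within that bound, so a difference of 1 log2 unit lay within the interval of the other 11.

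Ndufa4l2 was the gene with the smallest p over the ages. Its Plk3-KO minus WT difference was -0.36 ± 0.15 (SE), with a 95% interval from -0.67 to -0.04, and an adjusted p of 1 in limma. The exact two-sided permutation of genotypes within ages gave p = 0.024 for it, the smallest of 43 such values, unadjusted. At P0 a WT array and 2 Plk3-KO arrays shared the level 10.3, at P7 the groups overlapped, and in the adult each Plk3-KO array lay below each WT array. In that adult comparison it was the only member without overlap, 1 of 43, while 4.11% of all genes were lower without overlap. Adult Plk3-KO array 2 was the lowest of them, and it was not among the arrays that stood apart.

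Further genes are those with the 3 smallest p in each genotype comparison, all far from the threshold. Ndufaf7 was not among them and is given for its lack of overlap at P0. Ndufaf7 read 9.5, 9.5 and 9.3 on the P0 Plk3-KO arrays against 9.6 on each WT array, and it was the member without overlap at P0 (1.1% of all genes were lower without overlap). Ndufb10 differed by 0.27 ± 0.20 and Ndufaf4 by -0.20 ± 0.21 at P0. Ndufaf4 differed by 0.30 ± 0.21, Ndufaf6 by -0.37 ± 0.28 and Ndufa8 by -0.17 ± 0.20 at P7. Ndufaf2 differed by 0.47 ± 0.31 and Ndufb1 by 0.43 ± 0.34 in the adult, where Plk3-KO array 3 was the highest of its group for both. As means over the ages, Ndufb10 differed by 0.13 ± 0.11 and Ndufa9 by -0.12 ± 0.17. Plk3 lies on chromosome 4, as do Ndufaf4, Ndufaf6 and Ndufb6.

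**Figure D5:**
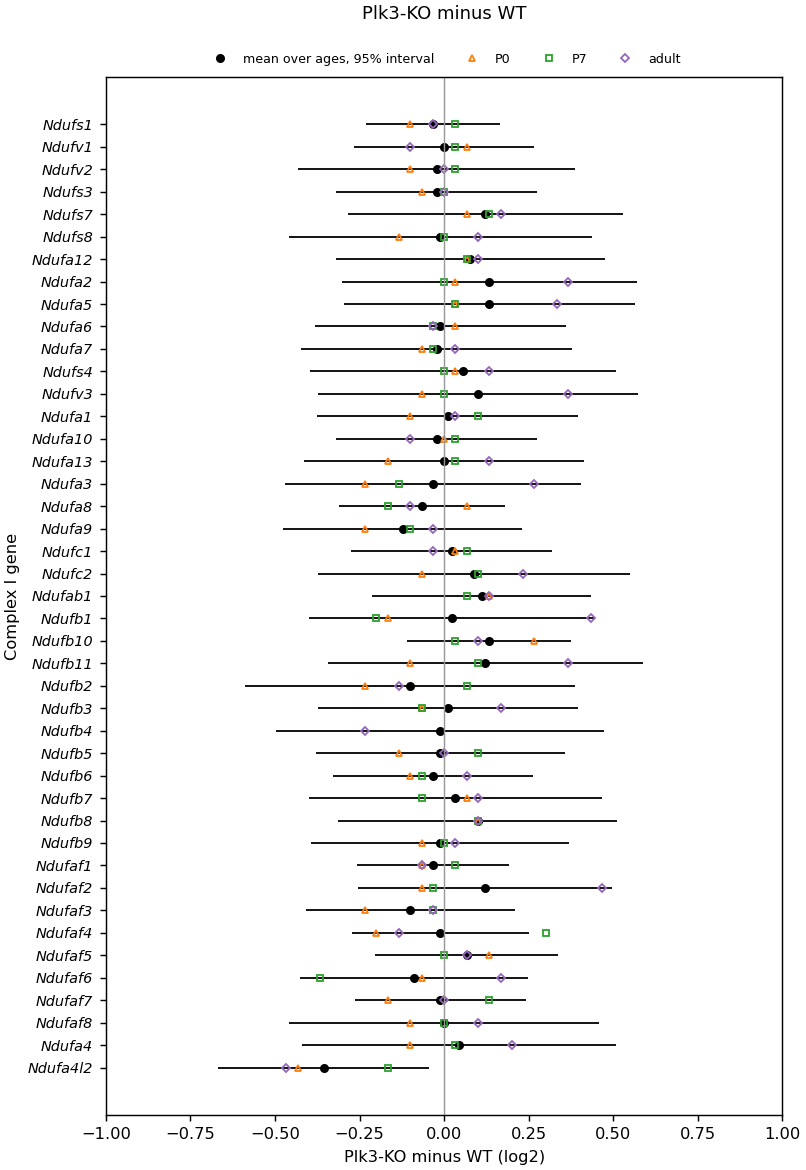
Plk3-KO minus WT difference in log2 units for the 43 genes. Filled circles are means over the 3 ages with 95% intervals from limma, and open symbols are the differences at P0, P7 and in the adult. Of the single ages, Ndufb4 was tested in the adult alone. All filled circles lie between -0.36 and 0.13, and the interval of Ndufa4l2 alone does not reach zero.

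No difference between the genotypes in the change with age was called in the test of that difference. For P7 minus P0, adult minus P7 and adult minus P0, 0 of 43 genes were called (limma, 0 at an unadjusted p under 0.05, and 0% of all genes), with differences of the changes between -0.43 and 0.63. The standard error of such a difference had a median of 0.44. Without the 4 arrays that stood apart, 0 complex I genes were called between the genotypes in the adult, where 1.6% of all genes were called higher and 0.134% lower, and the members' median difference was -0.30, against 0.07 with all arrays.

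The rest of the respiratory chain was set beside complex I with lists of its subunits. From P0 to the adult in WT, 1 of 4 complex II, 3 of 9 complex III, 4 of 13 complex IV and 4 of 16 ATP synthase genes were called higher, and 0 were called lower. Among all genes tested 27.4% were called higher and 22.6% lower. The shares called higher in these lists thus lay near that of all genes. Medians were 0.32, 0.73, 0.57 and 0.57, beside 0.70 for complex I. In Plk3-KO the numbers were 1, 7, 5 and 5, with 1 complex IV gene lower, and medians of 0.27, 1.17, 0.63 and 0.68. There 25.1% of all genes were called higher and 24.5% lower. Cox7a1, counted among the higher complex IV genes in both genotypes, passed the minimum in the adult alone. Its rise was thus fixed by that filter. Sdha, the flavin subunit of complex II, rose by 1.10 (adjusted p = 0.00116), while Sdhb and Sdhd, at 0.37 and -0.07, did not pass. Of the highest-signal genes of the other complexes, Cox6a1 (0.93, adjusted p = 0.0264) and Atp5g3 (0.93, adjusted p = 0.0210) rose, and Uqcrb (0.93), Uqcrh (0.73), Uqcrc2 (0.37), Cox7a2 (0.57), Cox6c (0.40), Atp5c1 (0.87) and Atp5pb (0.33) did not pass in WT. ND5, the only complex I subunit encoded in mitochondrial DNA with a symbol in the annotation used here, went from 13.8 ± 0.20 (SD, 3 arrays) at P0 to 15.7 ± 0.32 in the adult WT retina. That difference of 1.87 passed (adjusted p = 0.000428), as did that of 2.27 in Plk3-KO.

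Of 10 complex I assembly factors outside the Ndufaf family, 1 was called higher in WT, with a median of 0.03, and Dmac1, Lyrm2 and Tmem70, at 0.23, -0.03 and 0.40, were not called. Genes of mitochondrial content and genome upkeep went both ways, with 5 higher and 4 lower of 12 in WT. The abundant membrane proteins Slc25a4, the adenine nucleotide carrier, Tomm20, an import receptor, and Vdac1, the outer membrane channel, rose by 1.10, 0.97 and 1.77 (adjusted p = 0.00468, 0.0168 and 0.000220).

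Regulators of mitochondrial biogenesis were also mixed, with 5 higher and 3 lower of 11 in WT. Gabpa, the ETS factor of mitochondrial genes, fell by -1.30 (adjusted p = 0.000115), Esrrg, an estrogen-related receptor, rose by 1.63 (adjusted p = 4.70e-05), and Yy1 at -0.47 did not pass. Further regulators were picked after their values were seen. The factor gene Nrf1 fell by -1.03 (adjusted p = 0.0123), and the coactivators Ppargc1a and Ppargc1b rose by 2.2 and 3.47. Esrrb, a receptor known in rods, read 6.2 at P0 and 12 in the adult as group means, below the minimum at P0. No gene of these lists was called between Plk3-KO and WT.

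Markers of the retinal cell types moved with the same ages. From P0 to the adult in WT, 9 of 9 rod, 5 of 6 cone, 3 of 4 bipolar and 4 of 5 Müller glia markers rose, with a rod median of 5.93, and 7 of 7 progenitor and cell cycle markers fell, with a median of -5.17. Among the rod markers Gnat1, Cnga1 and Prph2 were at or below the minimum at P0, and none were in the adult. Amacrine markers split into 3 higher and 1 lower of 6, ganglion cell markers into 2 and 2 of 5, and horizontal cell markers had 1 lower of 3. Of the remaining lists, 1 of 5 microglia and 1 of 2 astrocyte markers were higher, 1 of 3 vascular markers was lower, and 0 of 5 lens markers and 0 of 1 red blood cell marker were called. All 4 pigment epithelium markers rose, with a median of 5.08, and Rpe65 and Lrat were at or below the minimum at P0. Lrat passed the minimum in the adult alone, and the progenitor marker Fgf15 at P0 alone. The rise of Lrat and the fall of Fgf15 were thus fixed by that filter. The part of these shifts in cell makeup in the rise of complex I genes was not tested.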

How the data were processed

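RNA of isolated retinas was amplified, labelled and hybridized to 18 Affymetrix mouse expression arrays (1 per sample), in 6 groups of 3 taken from the labels. The authors made the deposited values with the MAS5 method in the Affy package of Bioconductor, per the study's methods (version not given in the sources used here), and deposited them as log2 signals with 1 decimal. Array medians lay between 6.3 and 7.2, and the number of arrays limits the precision. Arrays from E16.5 retinas were not analysed here. The table held no columns of the authors' own comparisons.

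No further normalization was applied. Of 45101 probe sets, 64 controls were left out. Of the rest, 34945 had 1 gene symbol, 932 several and 9160 none in GEO's platform annotation, and Ndufa11 and Ndufs6 share probe sets with other symbols. Each gene was represented by the probe set with the highest mean. Probe sets with a group mean above 7 entered limma 3.58.1 (R 4.3.3), with 6 group means, a variance trend, 12 residual degrees of freedom and Benjamini-Hochberg adjustment within a contrast at 0.05. For genotype at 1 age the minimum had to be passed at that age. All adjusted p-values are from this fit, and an exact permutation of genotypes within ages was run for single genes. The smallest two-sided exact p of 3 against 3 arrays is 0.1.

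Named genes were the core subunits, all Ndufaf genes, Ndufa4 and Ndufa4l2, the 5 largest differences in each direction from P0 to the adult in WT (with ties), the 3 smallest p of each genotype contrast, genes with opposed probe sets, and the 3 brightest genes of each other list. Members and lists were chosen with earlier results of these data known. The fit was tested on simulated data. Alternatives were quantile normalization, median centring, other minimums, the mean of all probe sets, array weights, no variance trend, a replicate block, the methods' t-test and leaving out each array. Leaving out the 4 arrays that stood apart and the actin covariate were added after seeing the data.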

Additional observations from a re-analysis of the deposited data

How the results depend on the processing

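Counts of complex I genes called higher from P0 to the adult in WT (21 as reported) were 32 with array weights, 8 with the methods' t-test after adjustment and 5 with the actin covariate, and 7 to 23 when single arrays were left out. In Plk3-KO (22) they were 14 with the adjusted t-test and 1 with the covariate, and 17 to 25 without single arrays. Genes called lower in WT (1) were 2 with the t-test, adjusted or not, and 6 with the covariate. In Plk3-KO (1) they were 2 with weights, 2 without the 4 arrays and 4 with the covariate. Without single arrays both stayed at 1.

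From P0 to P7 in WT (9 higher) the counts were 22 after quantile normalization, 1 after centring, 5 with no minimum, 23 with weights, 2 with the adjusted t-test and 22 with the covariate, and 1 to 14 without single arrays. In Plk3-KO (11) they were 22, 3, 6 with the mean of all probe sets, 27 with weights, 21 and 3 with the unadjusted and adjusted t-test, 20 without the 4 arrays and 22 with the covariate, and 0 to 19 without single arrays. Genes lower were 2 in WT with weights or without the 4 arrays, and in Plk3-KO 2 with weights and 0 with the adjusted t-test (1 in each as reported, and 1 without any single array).

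From P7 to the adult in WT (2 higher, 2 lower) the higher counts were 1 after centring, with a minimum of 8 or with the covariate, 15 with weights, 0 with the adjusted t-test and 20 without the 4 arrays, and 0 to 2 without single arrays. The lower counts were 4 after quantile normalization, 1 after centring, with the adjusted t-test or without the 4 arrays, and 13 with the covariate, and 1 to 2 without single arrays. In Plk3-KO (1 and 1) the higher counts were 0 after centring, with the adjusted t-test or the covariate, 5 with weights, 2 with no variance trend and 6 without the 4 arrays, and 0 to 1 without single arrays. The lower counts were 3 after quantile normalization or without the 4 arrays, 5 with weights, 0 with the adjusted t-test and 13 with the covariate, and 1 to 2 without single arrays. The cause of these moves was not tested. Shares of all genes called are given for the main fit and the fit without the 4 arrays alone. Moves of the counts under other settings may therefore not be particular to complex I genes.

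Between genotypes 0 genes were called in every alternative, except 1 in the adult with the unadjusted t-test. Averaging all probe sets of a gene, dim ones included, turned Ndufb8 to -0.75 in WT and Ndufab1 to -0.44 in Plk3-KO from P0 to the adult, neither of them called. With the replicate number as a replicate block, 20 genes were higher from P0 to the adult in each genotype and 0 were called between genotypes. Deviations from the group mean on same-numbered arrays of the 2 genotypes correlated at 0.49, 0.10 and 0.54 in the adult. The values were 0.38, -0.49 and -0.61 at P7 and 0.19, -0.06 and 0.10 at P0, so the numbers were not taken as a pairing. At P7, Plk3-KO array 2 went with WT array 3 (0.60) and Plk3-KO array 3 with WT array 2 (0.63). The main fit has no term for arrays that deviate together across genotypes.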
